A study of Homo sapiens with 4 samples.

Results

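The genes described here are the cell cycle cyclins of types D, E, A, B and F, taken by their symbols: CCND1, CCND2, CCND3, CCNE1, CCNE2, CCNA1, CCNA2, CCNB1, CCNB2 and CCNF. Of these 10 genes, 9 have an entry among the 15575 genes of the count table, and CCND2 was not analysed here. RNA was sequenced from U251, an established human glioblastoma (GBM) cell line, with 2 control libraries (Ctrl) and 2 libraries after knockdown of PRMT3 (PRMT3-KD), a protein arginine methyltransferase. The PRMT3-KD cells received a lentiviral short hairpin RNA (shRNA) against PRMT3. The Ctrl cells received a lentiviral control, named lenti-shCtrl in the paper and pGreen in the sample names. RNA was collected from both after 72 h. Both groups are the same line and differ in no other stated treatment, and the sources do not name which PRMT3 shRNA was used for these libraries. The comparison asks which transcripts differ once PRMT3 is depleted.

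Cyclins are the regulatory subunits of cyclin-dependent kinases (CDKs), and their rise and fall through the cell cycle decides when each kinase is active. D-type cyclins join CDK4 and CDK6 in G1 and start the phosphorylation of the retinoblastoma protein, E-type cyclins join CDK2 at the entry into S phase, A-type cyclins act through S phase and G2, and B-type cyclins join CDK1 to drive mitosis. Cyclin F is the exception, since it binds no CDK partner and serves as the substrate-binding F-box subunit of an SCF ubiquitin ligase. In gliomas the cyclin D, CDK4/6 and retinoblastoma axis is among the pathways most often altered.

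The libraries held 24804250 to 29756313 counts. For PRMT3 itself each Ctrl library had 535 reads, and after knockdown 77 and 45 remained, a log2 fold change of -3.08 (SE 0.314, adjusted p = 0.0177, edgeR quasi-likelihood test with Benjamini-Hochberg adjustment over 13172 genes), so the labels match the targeted gene. Without Ctrl library 1 or 2 the adjusted p was 0.0764 or 0.0604. The glioma markers VIM, NES, CD44, GFAP, S100B and SOX2 summed to between 7318 and 8329 CPM (counts scaled to the library total and TMM factor) in the 4 libraries. OLIG2, also listed as a glioma marker, was not analysed here. VIM alone gave 4453 to 5399 CPM of that sum. NES stood at 786 and 779 CPM in Ctrl and at 459 and 826 CPM in PRMT3-KD. S100B stood near 2 CPM, and GFAP at 13.1 and 14.3 CPM in Ctrl and 1.26 and 5.39 CPM in PRMT3-KD. Markers of leukocytes, epithelium, oligodendrocytes and neurons summed to at most 1.85 CPM over the 5 of 8 that the table lists. The Ctrl libraries differed from each other by little more than counting noise (chi-square per degree of freedom 1.42), whereas the PRMT3-KD libraries differed far more (63.6). The labels do not say that the libraries of a group came from separate cultures, so p-values measure only the spread between these libraries, which may be technical.

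Every cyclin that was measured, 9 of 9, had its higher PRMT3-KD value below its lower Ctrl value, an arrangement that 33.8% of all genes tested had. A gene was called changed at an adjusted p under 0.05 and a change over 1.5-fold. By that rule 4 of the 9 cyclins fell, CCND3, CCNA1, CCNA2 and CCNB2, where 5.97% of all genes were called lower. None was called higher, where 4.97% of all genes were, and none was higher at an unadjusted p under 0.05 in edgeR or called higher by DESeq2. The median log2 fold change of the 9 cyclins was -0.72, against 0.01 for all genes. RNA from bulk cultures cannot tell fewer cells in a phase of the cycle from less cyclin RNA per cell. Over the same libraries, 16 proliferation genes such as MKI67, TOP2A and the MCM helicase genes summed to 4279 and 4274 CPM in Ctrl and to 2527 and 1954 CPM in PRMT3-KD, and their part in the cyclin values was not tested.

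**Figure D1:**
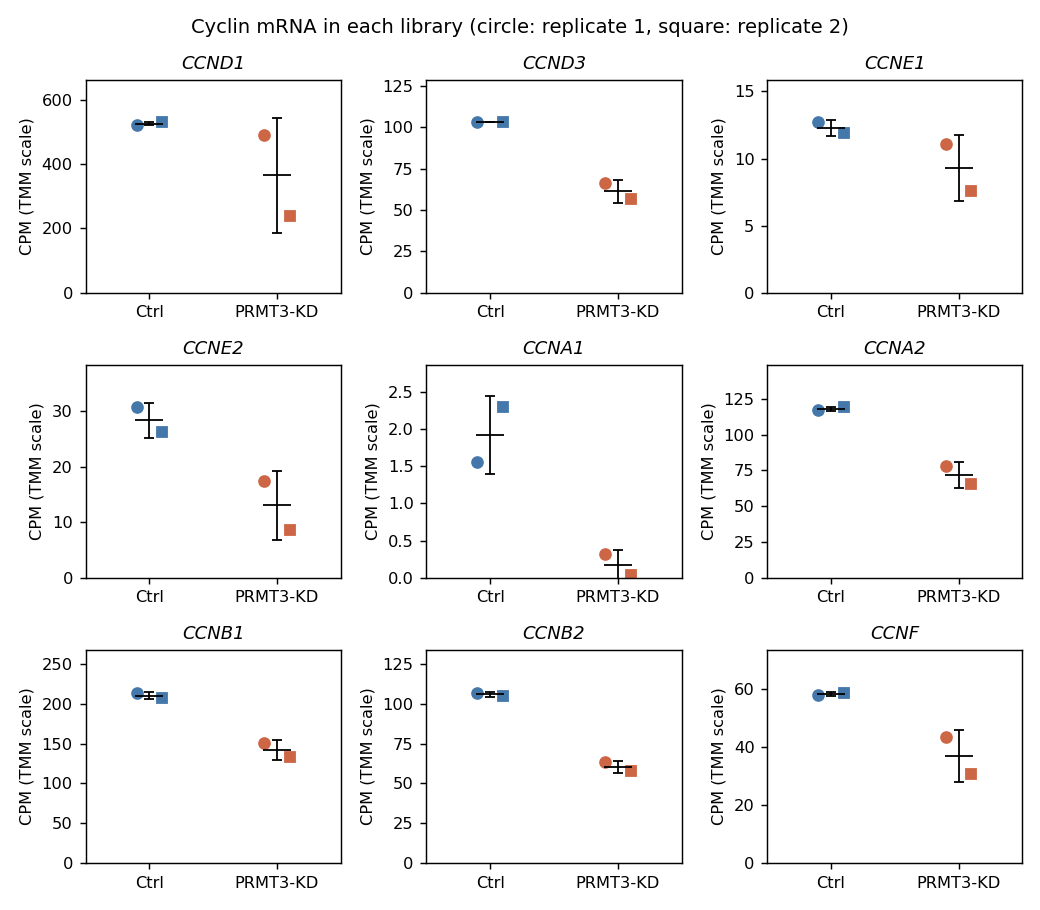
Normalised level (CPM on the TMM scale, axes from 0) of the 9 cyclins in the 2 Ctrl and 2 PRMT3-KD libraries, with the mean as a horizontal bar and the SD (n = 2) as a vertical one, which is drawn down to 0 only where it would pass below it (CCNA1). In every panel both PRMT3-KD points lie below both Ctrl points, and in CCND1 the PRMT3-KD points lie apart, at 491 and 238 CPM.

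The promoters of the cyclins of S phase, G2 and mitosis are shown because their regulation through short promoter motifs is well known. Transcription of such genes is known to run through CCAAT boxes, which bind NF-Y, and the cell cycle genes homology region (CHR), which binds the DREAM and MYB-MuvB complexes, while E2F sites serve genes of the G1/S transition. The 250 bases before the transcription start are given for 4 genes, from RefSeq on GRCh38.p14, in lower case with CCAAT boxes (CCAAT or its reverse complement) and CHR letters (TTTGAA or TTCGAA) in capitals.
CCNA2, chr4:121823884-121824133, minus strand: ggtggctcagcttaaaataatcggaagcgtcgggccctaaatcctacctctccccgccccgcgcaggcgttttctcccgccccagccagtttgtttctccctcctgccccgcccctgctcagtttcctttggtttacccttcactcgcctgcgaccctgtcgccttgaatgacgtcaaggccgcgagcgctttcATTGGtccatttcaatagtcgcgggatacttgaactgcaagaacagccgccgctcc
CCNB1, chr5:69166900-69167149, plus strand: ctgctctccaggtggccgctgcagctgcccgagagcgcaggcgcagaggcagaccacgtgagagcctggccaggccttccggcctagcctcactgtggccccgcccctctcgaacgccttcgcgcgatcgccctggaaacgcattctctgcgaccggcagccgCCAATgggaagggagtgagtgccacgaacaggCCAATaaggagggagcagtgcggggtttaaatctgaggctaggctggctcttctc
CCNB2, chr15:59104896-59105145, plus strand: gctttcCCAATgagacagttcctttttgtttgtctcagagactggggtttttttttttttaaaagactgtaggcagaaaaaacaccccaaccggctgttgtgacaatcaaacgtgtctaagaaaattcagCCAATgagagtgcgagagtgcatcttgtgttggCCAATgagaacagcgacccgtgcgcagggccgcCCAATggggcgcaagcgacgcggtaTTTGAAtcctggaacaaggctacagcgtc
CCNF, chr16:2429197-2429446, plus strand: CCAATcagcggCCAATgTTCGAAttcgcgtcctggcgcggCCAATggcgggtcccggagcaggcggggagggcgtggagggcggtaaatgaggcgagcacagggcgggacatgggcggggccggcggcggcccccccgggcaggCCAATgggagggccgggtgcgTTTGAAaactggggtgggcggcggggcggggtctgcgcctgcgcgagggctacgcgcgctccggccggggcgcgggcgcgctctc

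Windows of 300 bases, from 250 before to 50 after the start, were searched on both strands. Of 35116 RefSeq promoters, 34.6% held at least 1 CCAAT, 16.4% held a CHR, and 3.31% held one of the E2F letters TTTGGCGC, TTTCCCGC, TTTCGCGC or TTTGCCGC. The windows of CCNB2 and CCNF each held 4 CCAAT boxes, a number that 0.991% of promoters reach or pass. In CCNB2 they began 244, 120, 87 and 54 bases before the start, with TTTGAA 29 bases before it. In CCNF they began 250, 239, 210 and 106 bases before the start, with TTCGAA at 233 and TTTGAA at 85. The CCNB1 window held 2 CCAAT boxes, at 87 and 55 bases, and the CCNA2 window held 1, on the reverse strand at 56 bases. Of the other cyclins matched in the table, CCND3 held 1 CCAAT in each of 2 of its 3 promoters, and the CCNE1 and CCNA1 windows held neither motif. The E2F letters occurred in 0 of the 9 promoters of the 7 cyclins matched, and the entries missing were CCND1, CCND2 and CCNE2. No match overlapped another, and these are matches of letters, not measured binding. Other spellings of these motifs were not searched, so a window without a match, such as that of CCNA2 or CCNB1 for the CHR, may still hold one.

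Among the D-type cyclins, CCND3 fell and CCND1 did not pass the test. CCND1 (ENSG00000110092, GRCh37 chr11:69455924-69469242, plus strand) encodes cyclin D1, the G1 cyclin that links growth factor signals to CDK4 and CDK6. It stood at 522 and 530 CPM in Ctrl and at 491 and 238 CPM in PRMT3-KD, from counts of 14456, 14579, 12483 and 6768. One PRMT3-KD library was close to Ctrl and the other stood far below it, at log2 differences of -0.10 and -1.14 from the Ctrl mean. The fitted log2 fold change was -0.53 (SE 0.353, 95% interval -1.47 to 0.41, adjusted p = 0.340), an interval that holds both a fall beyond 2-fold and a modest increase.

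CCND3 (ENSG00000112576, chr6:41902672-42018095, minus strand) encodes cyclin D3, a G1 cyclin with the same kinase partners. Its values were 103 CPM in each Ctrl library and 66.1 and 56.5 CPM in PRMT3-KD, so both PRMT3-KD libraries were well below a Ctrl pair that hardly differed. CCND3 fell to 59.7% of its Ctrl mean, 61.3 ± 6.81 against 103 ± 0.0937 CPM (SD, n = 2), a log2 fold change of -0.75 (SE 0.102, adjusted p = 0.0223). Per kilobase of transcript, CCND1 made up 70.8% and 71.1% of the summed CCND1 and CCND3 level in Ctrl and 78.0% and 66.9% in PRMT3-KD. The PRMT3-KD libraries therefore lay on either side of the Ctrl pair in this share.

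Neither E-type cyclin passed the test, though their changes differed in size. CCNE1 (ENSG00000105173, chr19:30302898-30315219, plus strand), cyclin E1, the activator of CDK2 at the G1/S border, had 12.7 and 11.9 CPM in Ctrl and 11.1 and 7.57 CPM in PRMT3-KD. The first PRMT3-KD library was just under the Ctrl pair, and the log2 fold change was -0.40 (SE 0.216, 95% interval -0.98 to 0.17, adjusted p = 0.247). CCNE2 (ENSG00000175305, chr8:95891998-95908906, minus strand), cyclin E2, a second CDK2 activator whose transcript peaks at the same point of the cycle, had 30.7 and 26.2 CPM in Ctrl and 17.5 and 8.69 CPM in PRMT3-KD. All 4 libraries were spread out, and the groups did not overlap. The PRMT3-KD mean was 46.0% of the Ctrl mean, with a log2 fold change of -1.12 (SE 0.351, 95% interval -2.06 to -0.19, adjusted p = 0.0945). DESeq2, the tool the study used, called CCNE2 lower (adjusted p = 0.00522), as did limma-voom with group weights (0.0349). Without PRMT3-KD library 2 CCNE2 was also called (log2 fold change -0.71).

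Both A-type cyclins fell. CCNA2 (ENSG00000145386, chr4:122737599-122745038, minus strand) encodes cyclin A2, the cyclin of S phase and G2 in dividing somatic cells. It stood at 117 and 119 CPM in Ctrl and at 78.0 and 65.6 CPM in PRMT3-KD. Both PRMT3-KD libraries were clearly below the Ctrl pair, and the mean fell to 60.9% of Ctrl (log2 fold change -0.72, SE 0.108, adjusted p = 0.0256).

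CCNA1 (ENSG00000133101, chr13:37005657-37017007, plus strand) encodes cyclin A1, which is known chiefly from the germ line and some leukaemias. It was barely expressed, at 43 and 63 counts in Ctrl and 8 and 1 in PRMT3-KD, or 1.55, 2.29, 0.315 and 0.0352 CPM. The groups stood far apart for so rare a transcript, although the Ctrl libraries differed more for CCNA1 (0.56 on the log2 scale) than for any of the other cyclins (at most 0.23). The fitted log2 fold change was -3.47 (SE 0.743, 95% interval -5.45 to -1.49, adjusted p = 0.0461). Summed over libraries, 9 counts against 106 gave a depth-adjusted ratio of 8.71% (exact 95% interval 3.88% to 17.2%, counting error only). The CCNA1 call was lost with library totals in place of TMM factors (adjusted p = 0.0508) and with limma-voom (0.0798).

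The B-type cyclins moved by similar amounts in both PRMT3-KD libraries. CCNB1 (ENSG00000134057, chr5:68462962-68474072, plus strand), cyclin B1, which with CDK1 forms the main mitotic kinase, had 214 and 207 CPM in Ctrl and 151 and 133 CPM in PRMT3-KD. The PRMT3-KD libraries were both lower and close to each other, at 67.5% of Ctrl on average. With a log2 fold change of -0.57 (SE 0.0905, 95% interval -0.81 to -0.33, adjusted p = 0.0282), CCNB1 passed the adjusted p but stood just short of the 1.5-fold limit, which is 0.585 on the log2 scale. CCNB2 (ENSG00000157456, chr15:59397325-59417244, plus strand), cyclin B2, a second CDK1 partner found at the Golgi, had 107 and 105 CPM in Ctrl and 63.1 and 57.8 CPM in PRMT3-KD. Each group was tight, and CCNB2 fell to 57.1% of Ctrl (log2 fold change -0.81, SE 0.0810, adjusted p = 0.0172), the lowest adjusted p among the 9 cyclins.

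CCNF (ENSG00000162063, chr16:2479395-2508855, plus strand), cyclin F, had 57.9 and 58.9 CPM in Ctrl and 43.4 and 30.7 CPM in PRMT3-KD. Both PRMT3-KD libraries were below Ctrl but lay apart from each other. The log2 fold change of CCNF was -0.66 (SE 0.182, 95% interval -1.14 to -0.17), and the adjusted p of 0.0749 did not pass in edgeR, whereas DESeq2 (0.0130) and limma-voom (0.0165) called it lower.

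The cyclin calls depended on single libraries. Leaving out PRMT3-KD library 1, so that the spread came from the Ctrl pair, raised the calls among the cyclins and over all genes. The log2 fold changes were then -1.14 for CCND1, -0.70 for CCNE1, -1.71 for CCNE2, -0.66 for CCNB1 and -0.92 for CCNF. Leaving out PRMT3-KD library 2 added CCNE2 to the 4 calls above, and calls over all genes rose as well. Leaving out either Ctrl library leaves the lone Ctrl library assumed to vary like the PRMT3-KD pair. This removed every cyclin call in edgeR, as it did every call over all genes. An exact permutation test of 2 against 2 libraries cannot go below a two-sided p of 0.333 for any single gene.

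**Figure D2:**
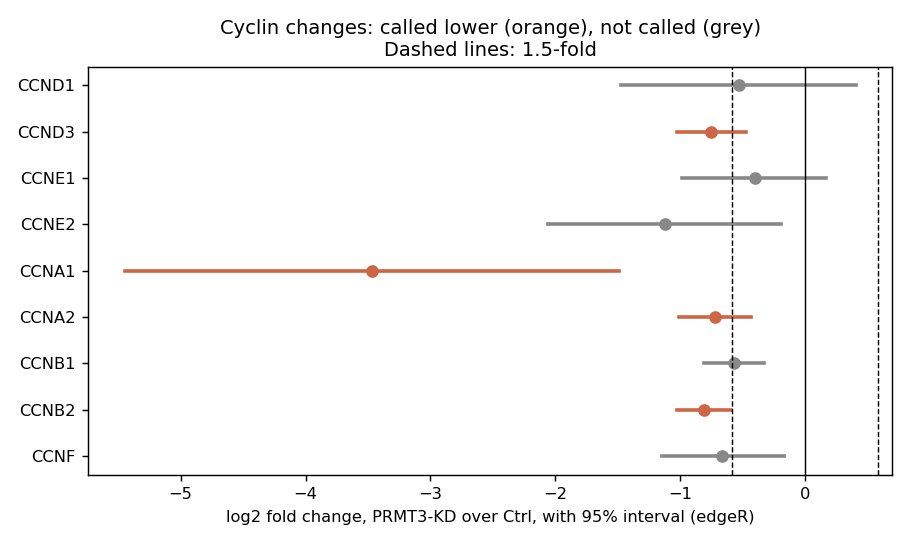
Log2 fold change of PRMT3-KD over Ctrl for each cyclin (points) with its 95% interval (lines) from edgeR, where orange marks the 4 genes called lower and grey the 5 not called, and dashed lines mark 1.5-fold. CCNB2 has the narrowest interval and CCNA1, at -3.47, the widest, and the intervals of CCND1 and CCNE1 include 0.

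The cyclins differed in how far apart the PRMT3-KD libraries stood. All 9 were lower in PRMT3-KD library 2 than in library 1, as were 53.6% of all genes tested, and the median log2 difference of library 2 minus library 1 was -0.50 for the cyclins and -0.03 for all genes. The B-type cyclins and CCND3 differed least, at -0.12 for CCNB2, -0.18 for CCNB1 and -0.23 for CCND3, followed by CCNA2 at -0.25. CCNF, at -0.50, and CCNE1, at -0.55, were intermediate. CCNE2 at -1.01, CCND1 at -1.04 and CCNA1 at -3.16 differed most, the last from 8 counts against 1. PRMT3 was also lower in library 2, at 1.58 CPM against 3.03 CPM, as was the summed level of the proliferation genes, and their part in the difference between these libraries was not tested.

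**Figure D3:**
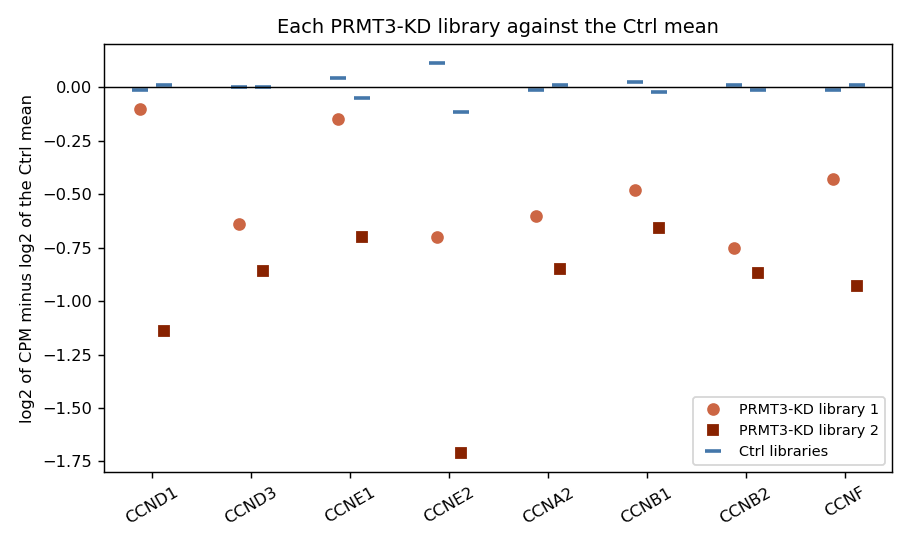
Log2 difference from the Ctrl mean of each PRMT3-KD library (circle for library 1, square for library 2) and of the Ctrl libraries (dashes) for 8 cyclins, with CCNA1 left out for its few counts. Library 2 lies below library 1 in each, with the widest gaps in CCND1 (-0.10 and -1.14) and CCNE2 (-0.70 and -1.71) and the narrowest in CCNB2.

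Levels between cyclins were compared per kilobase of transcript. CCND1 was the most abundant in Ctrl, at 124 ± 1.38 CPM per kilobase (SD, n = 2), followed by CCNB1 at 104 ± 2.26. The Ctrl libraries then gave 71.9 and 70.4 CPM per kilobase for CCNB2, 50.7 in both for CCND3, and 42.5 and 43.4 for CCNA2. CCNF followed at 13.7 and 13.9, CCNE2 at 11.5 and 9.80, CCNE1 at 6.52 and 6.08, and CCNA1 at 0.897 and 1.32 CPM per kilobase. The cyclins that work in G1 and in mitosis thus stood well above the E-type cyclins and cyclin F. No neighbouring pair in this order, by transcript length, overlapped between the Ctrl libraries. By coding length CCNB2 (89.6 and 87.7) stood below CCND3 (117 in both) and CCNA2 (90.1 and 91.9) in Ctrl. It stood below them within each PRMT3-KD library too. By that length CCNE2 (25.3 and 21.6) overlapped CCNF (24.5 and 25.0) in Ctrl.

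The same order held in PRMT3-KD library 1, where CCND1 was at 116 and CCNB1 at 74.3 CPM per kilobase. In PRMT3-KD library 2 CCNB1, at 65.6, stood above CCND1, at 56.2, and CCNE1, at 3.87, above CCNE2, at 3.25. Per kilobase of transcript, neither CCND1 and CCNB1 nor CCNE1 and CCNE2 were separated beyond the spread of the PRMT3-KD libraries, and CCND3 (32.6 and 27.9) overlapped CCNA2 (28.4 and 23.9). In PRMT3-KD library 2 the order of CCND1 and CCNB1 depends on the length used, whereas in Ctrl CCND1 stood above CCNB1 by either length. The CCND1 transcript of 4238 bases carries a coding part of only 885 bases. The Ctrl level of CCND1 was 1.20 times that of CCNB1 per transcript length and 3.67 times per coding length. Per kilobase of coding sequence, CCND1 in the PRMT3-KD libraries (555 and 269 CPM) stayed above CCNB1 (116 and 102), and CCND3 (75.4 and 64.5) above CCNA2 (60.2 and 50.6). CCNE2 (14.4 and 7.17) was then above CCNE1 (8.99 and 6.15) within each library, though their ranges overlapped.

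**Figure D4:**
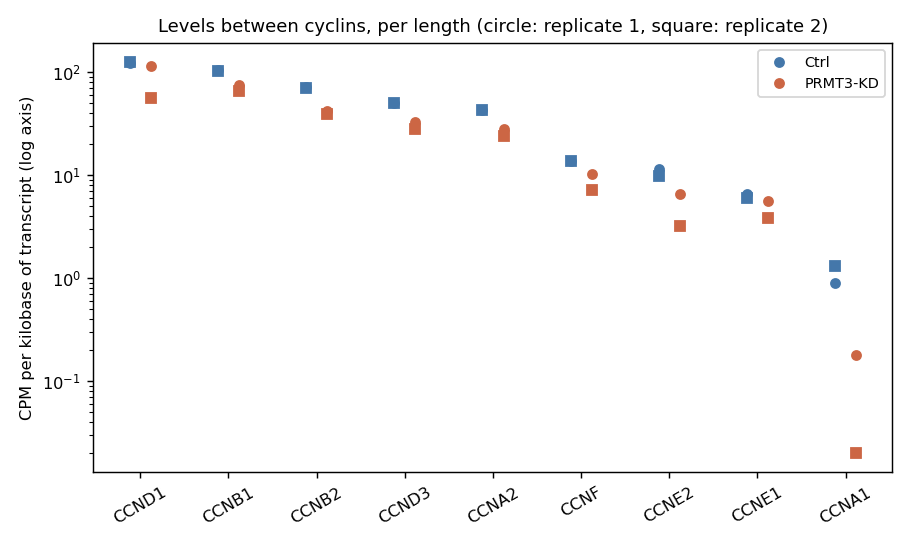
Level of each cyclin per kilobase of transcript (CPM per kilobase, log axis) in the 2 Ctrl and 2 PRMT3-KD libraries, ordered by the Ctrl mean. CCND1 and CCNB1 lead in Ctrl, at 124 and 104 CPM per kilobase, CCNA1 lies far below the other cyclins, and the square of CCND1 in PRMT3-KD, at 56.2, falls under that of CCNB1.

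Several cyclin genes share their locus with other genes, and the sources used here do not state that counting used strand, so reads from overlapping genes cannot be told apart. CCNA2 overlaps EXOSC9, CCNE2 overlaps INTS8, and CCND1 overlaps ORAOV1 (LTO1). None of these protein-coding neighbours passed the test, with log2 fold changes of -0.15 for EXOSC9 (adjusted p = 0.401), 0.28 for INTS8 (0.0873) and -0.27 for ORAOV1 (0.151). CCND3, CCNF and CCNE2 also overlap genes of long noncoding RNAs on the other strand, whose values are not given here. CCND3 has the annotated pseudogenes CCND3P1 and CCND3P2, and CCNB2 has CCNB2P1, so the counts of CCND3 and CCNB2 carry that uncertainty.

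The counts of each list that follows stand beside the shares over all genes tested, 5.97% called lower and 4.97% called higher. Around the cyclins, 8 lists of pathway genes held 101 distinct symbols, of which 93 could be tested, 22 fell and 3 rose. Without PRMT3-KD library 1 both counts rose, as did those over all genes. Without either Ctrl library no gene was called in edgeR. The kinases that cyclins activate were not among the genes that fell or rose. CDK1, the mitotic kinase, stood at 139 and 137 CPM in Ctrl and 104 and 87.2 CPM in PRMT3-KD (log2 fold change -0.53, adjusted p = 0.0410), and CDK2, the partner of cyclins E and A, at 79.2, 81.4, 61.3 and 55.3 CPM (-0.46, 0.0363). Both passed the adjusted p without reaching 1.5-fold. CDK4 (-0.26, adjusted p = 0.204) and CDK6 (-0.27, 0.0942), the partners of the D-type cyclins, did not pass it. By edgeR's call rule and by DESeq2's, 0 of these 4 kinases changed, and 3 were lower at an unadjusted p under 0.05 in edgeR.

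Of 8 genes for CDK activation and inhibitory phosphorylation, 1 rose and none fell. WEE1, a kinase that holds CDK1 inactive, went from 73.7 and 75.1 CPM in Ctrl to 147 and 137 CPM in PRMT3-KD. This is a log2 fold change of 0.93 (SE 0.0762, adjusted p = 0.0142), with the groups far apart. In the same list 3 genes were lower at an unadjusted p under 0.05 in edgeR, and DESeq2 called 1 lower. PKMYT1, also a kinase gene of this list, is named here after its values were seen and had the list's largest change. It stood at 56.7 and 55.3 CPM in Ctrl and 31.3 and 15.9 CPM in PRMT3-KD. Its log2 fold change was -1.25 (SE 0.332, adjusted p = 0.0685 in edgeR), and it did not pass.

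Of the 4 CDK inhibitor genes tested, 1 rose, CDKN1B, and 1 fell, CDKN2D. CDKN1B, which encodes p27, an inhibitor of cyclin E and cyclin A kinases, rose from 44.2 and 42.2 CPM to 65.0 and 70.7 CPM (log2 fold change 0.65, adjusted p = 0.0212). CDKN2D, an INK4 inhibitor of CDK4 and CDK6, fell from 21.1 and 20.4 CPM to 14.4 and 12.4 CPM (-0.63, 0.0381). CDKN1A, which encodes p21, stood at 29.4 and 28.8 CPM in Ctrl and 19.0 and 19.8 CPM in PRMT3-KD (-0.58, 0.0263), just short of 1.5-fold. For p21 protein the study reports the other direction, a rise by western blot in U251 cells after PRMT3 knockdown. Protein and RNA are unlike measures, and the difference was not tested. CDKN1C, which encodes p57 and is named here after its values were seen, had the largest change of the list at few counts, 11 and 7 in Ctrl and 22 and 35 in PRMT3-KD (1.68, 0.0580), and did not pass. CDKN2A had at most 0.0722 CPM in any library and was not tested, and CDKN2B and CDKN2C were not analysed here.

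Of the 17 genes for the ubiquitin ligases that destroy cyclins, 4 fell and none rose, with a median log2 fold change of -0.39. They were FBXO5 (-0.98), the inhibitor of the anaphase-promoting complex (APC/C) also called EMI1, FBXO4 (-0.98), an F-box protein studied with cyclin D1, and the APC/C activator CDC20 (-0.95). The fourth was UBE2S (-0.68), the ubiquitin-conjugating enzyme that extends chains for the APC/C. At an unadjusted p under 0.05, 3 of the 17 were higher in edgeR, and DESeq2 called 0 higher. With library totals in place of TMM factors 2 of the 17 were called, since CDC20 (adjusted p = 0.0552) and FBXO5 (0.0587) lost the call.

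Of the 23 genes that control cyclin transcription, 5 fell and none rose, with a median of -0.17. E2F2, an activator E2F, fell from 25.7 CPM in both Ctrl libraries to 5.39 and 4.15 CPM (log2 fold change -2.43, adjusted p = 0.0140). E2F8, an atypical repressor E2F, fell from 23.1 and 19.9 CPM to 8.03 and 6.37 CPM (-1.58, 0.0182). FOXM1, the forkhead activator of CCNB1 and other mitotic genes, fell from 300 and 298 CPM to 116 and 89.4 CPM (-1.54, 0.0160). These falls were larger than that of any cyclin but CCNA1. MYBL2, the B-MYB subunit that joins MuvB, fell too (-0.80, 0.0250), and E2F3 was the last of the 5. In this list 2 genes were higher at an unadjusted p under 0.05 in edgeR, and DESeq2 called 1 higher.

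**Figure D5:**
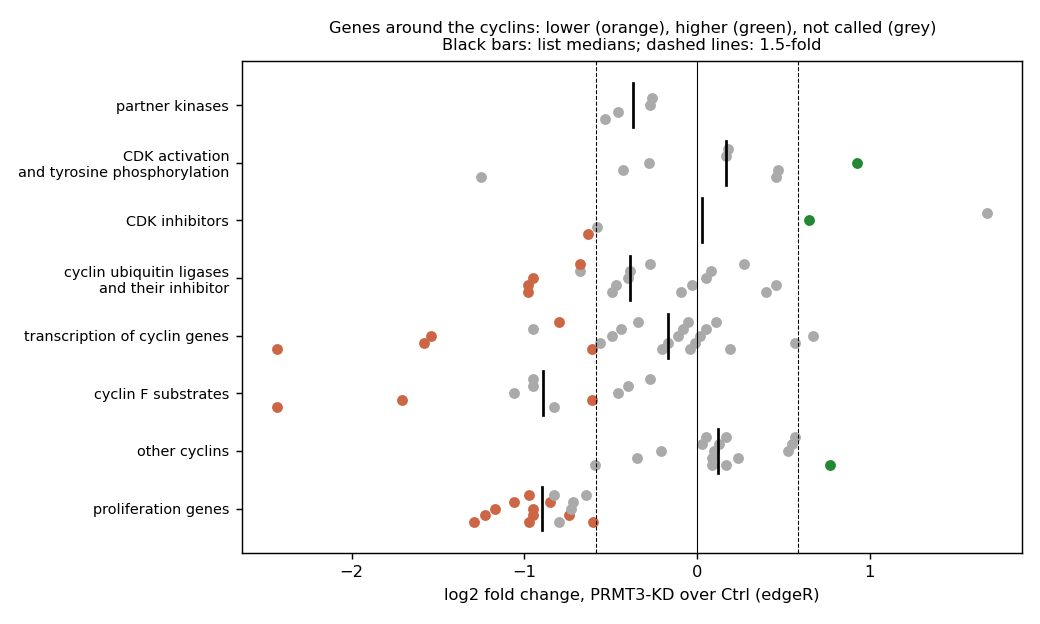
Log2 fold change of PRMT3-KD over Ctrl for each tested gene of the 8 pathway lists, with orange for genes called lower, green for higher and grey for not called, a black bar at each list's median and dashed lines at 1.5-fold. The proliferation genes and cyclin F substrates have medians of -0.90 and -0.89, and the median of the other cyclins is 0.12.

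Proteins known as substrates of cyclin F were listed because their RNA can be read beside that of CCNF. Of these 10 genes, 3 fell and none rose, with a median log2 fold change of -0.89: E2F2, E2F3 (-0.61, adjusted p = 0.0198) and NUSAP1, a spindle protein (-1.71, 0.0170). SLBP, the histone mRNA binding protein (-0.46, 0.0273), and FZR1, an APC/C activator (-0.40, 0.0374), passed the adjusted p without reaching 1.5-fold. RRM2, a subunit of ribonucleotide reductase (-0.95, 0.0851), CDC6, a replication licensing factor (-1.06, 0.0789), E2F1 (-0.95, 0.0587), EXO1 (-0.83, 0.0822) and the centriolar protein CCP110 (-0.27, 0.107) did not pass. DESeq2 called 7 of the 10 lower, and at an unadjusted p under 0.05 none was higher. RNA levels say nothing of the degradation through which cyclin F acts on these proteins.

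Of 21 symbols listed for other members of the cyclin family, 16 could be tested, with a median log2 fold change of 0.12. Among them 1 rose, where 4.97% of all genes did, and none fell. The difference from the cell cycle cyclins was not tested. CCNJL, a cyclin J-like gene of little known function, rose from 20.5 and 20.9 CPM to 35.1 and 35.4 CPM (0.77, adjusted p = 0.0188). At an unadjusted p under 0.05, 3 were lower in edgeR, and DESeq2 called 0 lower. Of the 16 proliferation genes, 11 fell and none rose, with a median of -0.90. At an unadjusted p under 0.05 all 16 were lower and none higher in edgeR, and DESeq2 called 16 lower. MKI67, the source of the Ki-67 antigen, fell from 898 and 904 CPM to 520.0 and 410.0 CPM (-0.95, 0.0227). The mitotic kinase gene AURKB (-1.29), TYMS for thymidylate synthase (-1.23) and TOP2A for topoisomerase II alpha (-1.17) fell most in that list. The smallest change among the proliferation genes was -0.60, for BUB1.

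By pattern over the 4 libraries, measured as the Euclidean distance of log2 CPM centred on the Ctrl mean among 9459 genes, the genes nearest to CCNE2 were RECQL4, CDC6 and LIG1, at distances of 0.160, 0.203 and 0.211. Their log2 fold changes were -1.10, -1.06 and -1.14, a likeness that the choice by distance fixes. Nearest to CCNE1 were WDHD1, TMEM237 and YRDC, at distances of 0.0199, 0.0555 and 0.0610, with log2 fold changes of -0.39, -0.38 and -0.40. CCNE2 and CCNE1 are the members with the lowest and the highest log2 fold change among those with a mean of at least 10 CPM.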

How the data were processed

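RNA of 4 U251 samples (2 Ctrl, 2 PRMT3-KD) was sequenced. The authors deposited raw gene counts, whole numbers that were not normalised, with a column for each sample. Their methods and processing notes name CASAVA, TopHat, Cufflinks, DESeq2 and hg19, and the versions, gene annotation and strand setting are not given in the sources used here. Groups and replicate numbers came from the sample labels. Of 15576 table entries, 1 duplicate identifier was removed, and 99.9% of identifiers were in GENCODE 44 lifted to GRCh37, which gave positions and lengths. Library totals of 24804250 to 29756313 counts limit precision for rare transcripts such as CCNA1.

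The analysis used edgeR 4.0.16 under R 4.3.3, with filterByExpr (minimum count 10, minimum total 15), TMM factors (0.955 to 1.02), glmQLFit and glmQLFTest on group alone, and Benjamini-Hochberg adjustment over 13172 genes. CPM are on the TMM scale. The fit was run on simulated counts that gave both groups equal spread. The Ctrl and PRMT3-KD pairs here differed in spread, a case the simulation did not cover. The cyclins, lists and tests were chosen with earlier results of these data known. Named genes were all member cyclins, PRMT3, up to 4 called genes a list by largest change, CDK1, CDK2, CDK4, CDK6, CDKN1A, FOXM1, MKI67, the cyclin F substrates, and the 3 nearest in pattern to the members of lowest and highest change with a mean of at least 10 CPM. S100B, GFAP, the overlapping genes, PKMYT1, CDKN1C and BUB1 are named outside this rule. Alternatives were DESeq2 1.42.0, limma-voom (limma 3.58.1) with group weights, other scalings, count filters and fold thresholds, a replicate block, and leaving out each library. Promoters came from RefSeq (GRCh38.p14), and their coordinates are not to be mixed with the GRCh37 gene positions.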

Additional observations from a re-analysis of the deposited data

How the results depend on the processing

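Of 107 cyclin log2 fold changes under alternatives, 0 reversed, 85 kept their side of the threshold, 10 lost the call and 12 gained it. Both PRMT3-KD values of each cyclin lay below both Ctrl values, so leaving out a library could not reverse a direction. All alternatives reuse the same 4 libraries, and the absence of reversals is no further support for the direction. The count of cyclins called lower, 4, was 6 with DESeq2, 5 with the replicate block and 1 with a 2-fold threshold. The replicate numbers gave only 2 pairs, the correlation of the replicate 1 to 2 differences between groups was 0.058 over 13172 genes, and the block added CCNE2 (-1.19, adjusted p = 0.0283). Leaving out libraries moved the count from 0 to 9: 0 without either Ctrl library, where no gene of the table was called, 9 without PRMT3-KD library 1 and 5 without PRMT3-KD library 2, since the spread is then that of the other group's pair. The adjusted p of CCND3, CCNA1, CCNA2 and CCNB2 ran from 0.168 to 0.232 without a Ctrl library. PRMT3 kept its direction, from -3.61 to -2.68 on the log2 scale, with adjusted p of 0.0764 and 0.0604 without Ctrl library 1 and 2. Pathway genes called lower, 22, ran from 0 to 36 and those called higher, 3, from 0 to 7 as libraries were left out. Without Ctrl library 1 or 2, 34 and 37 pathway genes were lower at an unadjusted p under 0.05 in edgeR and 7 and 5 were higher. CCNA1 was lost with library totals (adjusted p = 0.0508) and limma-voom (0.0798) and was removed by a minimum of 10 counts in every library. CCNB1 gained the call with library totals in place of TMM factors (-0.60, 0.0446) and without PRMT3-KD library 1 (-0.66, 1.46e-15). The ratio of CCND1 to CCNB1 level was 1.20 per transcript length and 3.67 per coding length. Other scalings moved the median of all genes by at most 0.0315 (log2). CDKN2D lost its call under the replicate block, and cyclin F substrates called lower went from 3 to 7 under it. Ubiquitin ligase genes called lower went from 4 to 2 with library totals.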
